A study of Mus musculus with 6 samples.

Results

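Integrins are receptors that bind cells to the extracellular matrix, and 10 of their subunits that bind matrix were followed here by RNA sequencing in fibroblasts of the mouse colon, the matrix-making cells beneath the epithelium of the large bowel. The members were taken by gene symbol: Itga1, Itga2 and Itga11, Itga3 and Itga6, Itga5, Itga8 and Itgav, and the β subunits Itgb1 and Itgb3. All 10 were found among 38896 genes, and they hold 24 of the 120299 transcripts listed. Mice aged 6 weeks provided the cells, from the distal colon, which were grown for 2 passages and then spent 24 h in inflammatory or control conditioned medium. The libraries labelled DSS were taken here as those in inflammatory medium, and the libraries labelled control as those in control medium. DSS is the usual abbreviation of dextran sulfate sodium, which is used to induce colitis in mice. The sources used here do not give how the media were made. Each of the mice 1716, 1717 and 1718 gave 1 DSS and 1 control library, so n = 3 in each group and the groups pair by animal. The libraries thus describe passaged cultures and not the gut wall.

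An integrin is a pair of 1 α and 1 β chain. The α chain largely sets which matrix protein is bound, and the β chain carries the tail that talin and kindlin attach to and that links the receptor to actin. Itgb1 is the common partner of most α chains named here, whereas Itgb3 pairs with Itgav. In fibroblasts these receptors hold the cell to collagen, laminin and fibronectin, carry tension and, through Itgav, release TGF-β from its latent form.

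The libraries held 17293680 to 19482938 estimated counts. Values below are CPM, a gene's count scaled to a common library total, and a change is the log2 fold change of DSS over control ± SE from edgeR's quasi-likelihood test, called at an adjusted p under 0.05 over all 19869 genes tested. "Without mouse 1717" means that both libraries of that animal were left out, which leaves 2 libraries a group. The 8 fibroblast markers were present in every library. Of them 1 rose and 4 fell, 62.5% against 13.3% of all genes, with a median log2 fold change of -0.42. Col1a1 had 7385 to 9732 CPM in DSS and 15836 to 19685 CPM in control, whereas Pdgfra rose by 0.71 on the log2 scale (edgeR adjusted p = 0.0178), a call lost without DSS 1717 (0.0560), DSS 1718 (0.0527), control 1717 (0.0576), control 1718 (0.0572), mouse 1717 (0.144) and mouse 1718 (0.135). The macrophage markers summed to 1113 to 1902 CPM in DSS and 1806 to 2659 CPM in control, so transcripts of macrophage genes were present in both groups. The glial markers summed to 59.4 to 261 CPM in DSS and 95.8 to 323 CPM in control. Smooth muscle and pericyte markers summed to 1034 to 1240 CPM in DSS and 1500 to 1615 CPM in control, with a median log2 fold change of -0.88. In a fit with the mouse as a block, 1 of these 6 markers rose and 5 fell, where 12.3% and 12.7% of all genes were called. Without the block 1 rose and 1 fell, 33.3% against 13.3% of all genes. Of these 6, Actg2 fell by 0.93 on the log2 scale (edgeR adjusted p = 0.00221) and Myh11 rose by 0.43 (0.0278), a call of Myh11 lost without DSS 1717 (0.0861), DSS 1718 (0.0823), control 1716 (0.0881), control 1717 (0.112), mouse 1717 (0.254) and mouse 1718 (0.109). Pdgfra, Actg2 and Myh11 were named after their values were seen. Endothelial, epithelial and mesothelial markers each summed to at most 17 CPM in any DSS library and 22.2 CPM in any control library. Epcam had no count in 2 of the 3 DSS libraries. The 8 epithelial markers summed to 3.64 to 6.02 CPM in DSS and 11.5 to 16.7 CPM in control. Of the 3 epithelial markers tested 0 rose and 2 fell, 66.7% against 13.3% of all genes. In bulk RNA, fewer cells of a type and less RNA per cell cannot be told apart.

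The integrin set differed unevenly between DSS and control. The collagen-binding Itga2 and the laminin-binding Itga3 rose, by 0.90 and 1.80 on the log2 scale. The collagen-binding Itga11 and the fibronectin-binding Itga5 fell, by 1.07 and 0.66 on the same scale. The other 6 members, among them both β subunits, did not pass this test, while a fit blocked by mouse called Itga1 and Itgb1 as lower too (edgeR adjusted p = 0.00365 and 0.0154). Thus 2 of 10 members rose and 2 fell, against 7.37% and 5.91% of all genes tested (13.3% in either direction). With control 1717 left out the calls of Itga2 and Itga3 were left, and after leaving out either mouse 1717 or mouse 1718 that of Itga3. Over all genes those fits called 1349, 649 and 664, in that order, against 2639 with all libraries. All 10 passed the filter on low counts. The members' median log2 fold change was 0.02, and that of all genes 0.01.

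**Figure D1:**
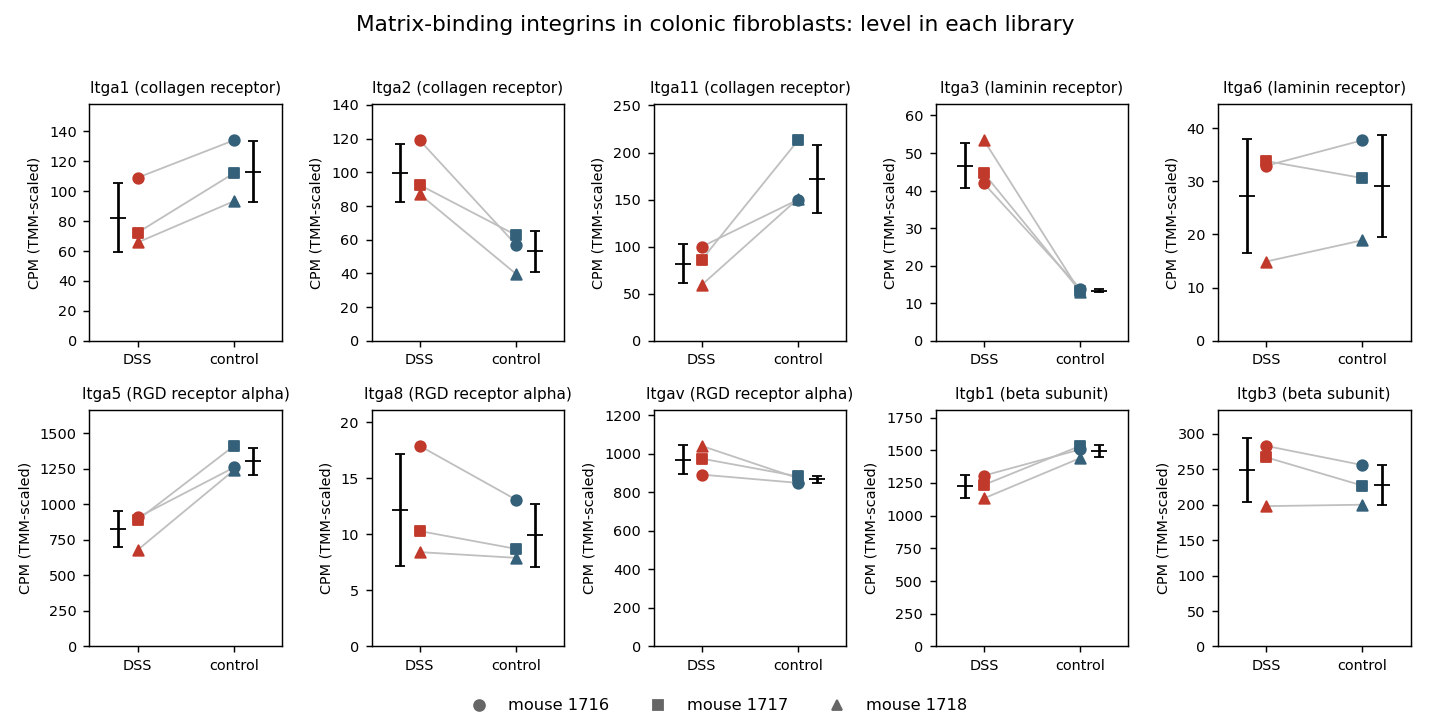
CPM of each member (vertical axis, linear from 0) in the DSS and the control library of each mouse; grey lines join the libraries of 1 animal, and black bars give the mean ± SD (n = 3). Itga3 lay at 41.9 to 53.4 CPM in DSS and 13.0 to 13.9 CPM in control. Itga5 lay at 679 to 908 CPM in DSS and 1241 to 1412 CPM in control. The groups of Itga1, Itga6, Itga8 and Itgb3 overlapped.

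Promoter sequences (RefSeq, GRCm38.p6) are given for the 4 called members, 2 that rose and 2 that fell, to set members that moved in opposite directions side by side. Each window runs 5′ to 3′ on the gene's strand, from 250 bases before the annotated start to 50 bases after it. Capitals mark matches to the NF-κB, AP-1 (TGANTCA), Nrf2 (TGACNNNGC), TEAD (CATTCC) and SRF CArG box motifs, searched on both strands. The AP-1 and Nrf2 motifs can overlap. In these 4 windows the capitals are 1 NF-κB match, in Itga3, and GC boxes are left in lower case.
Itga3, chr11:95076665-95076964, strand minus: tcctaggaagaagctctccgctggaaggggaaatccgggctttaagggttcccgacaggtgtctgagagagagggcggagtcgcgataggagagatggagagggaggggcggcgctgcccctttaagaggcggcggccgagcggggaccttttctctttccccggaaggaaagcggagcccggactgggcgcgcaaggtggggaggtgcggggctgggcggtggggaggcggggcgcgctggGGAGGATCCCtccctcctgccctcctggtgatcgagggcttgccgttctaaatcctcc
Itga2, chr13:114932051-114932350, strand minus: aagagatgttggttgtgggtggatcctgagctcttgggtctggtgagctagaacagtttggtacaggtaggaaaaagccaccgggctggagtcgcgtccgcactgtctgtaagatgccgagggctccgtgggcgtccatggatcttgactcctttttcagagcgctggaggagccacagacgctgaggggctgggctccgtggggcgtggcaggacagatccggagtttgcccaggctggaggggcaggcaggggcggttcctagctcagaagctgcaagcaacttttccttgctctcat
Itga11, chr9:62677605-62677904, strand plus: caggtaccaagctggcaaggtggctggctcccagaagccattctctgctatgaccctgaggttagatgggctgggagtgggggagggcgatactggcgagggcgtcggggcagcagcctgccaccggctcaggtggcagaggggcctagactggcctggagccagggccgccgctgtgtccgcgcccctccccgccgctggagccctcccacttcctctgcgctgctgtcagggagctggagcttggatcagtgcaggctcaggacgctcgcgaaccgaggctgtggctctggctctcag
Itga5, chr15:103366742-103367041, strand minus: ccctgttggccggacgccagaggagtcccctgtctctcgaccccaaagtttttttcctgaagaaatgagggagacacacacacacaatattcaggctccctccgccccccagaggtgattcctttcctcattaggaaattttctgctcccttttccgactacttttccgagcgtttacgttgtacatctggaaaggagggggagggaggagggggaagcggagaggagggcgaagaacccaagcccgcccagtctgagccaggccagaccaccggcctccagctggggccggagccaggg

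Of the 10 members, 8 had a window in the table. Itga3 had 2 windows, and the one shown holds the start of its leading transcript, base 95076714, which lies 130 bases inside the gene's 5′ end. The NF-κB match starts at position -8 from that start, and 8.46% of 32851 windows of the same length hold such a match. The second window of Itga3, chr11:95069149-95069448, lies inside the gene and holds 1 AP-1 motif, found in 7.81% of windows, and 1 GC box. Among the other members Itgb1 held 1 Nrf2 motif and 1 TEAD motif, which 12.4% and 14.7% of windows hold. The GC box (GGGCGG), held by 35.7% of windows, was found 3 times in the window shown for Itga3, 2 times in Itga5 and 1 time each in Itga2, Itgav and Itgb1. A match is a run of letters and not a shown binding site.

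Among the collagen receptors, the members moved apart. Itga2, the α2 chain of a collagen receptor best known from platelets and epithelium (NCBI Gene 16398, chromosome 13, 114833081 to 114932100, GRCm38.p6), had 119, 92.5 and 87.0 CPM in the DSS libraries of mice 1716, 1717 and 1718, against 57.0, 62.7 and 39.7 CPM in their control libraries. Each DSS library lay above each control library, and the rise was 0.90 ± 0.19 on the log2 scale (edgeR adjusted p = 0.0190). Within the animals the log2 difference was 1.06, 0.56 and 1.13. With the mouse as a block the call was kept (edgeR adjusted p = 0.00121). With 2 animals and no block it was lost, at edgeR adjusted p = 0.0794 without mouse 1716, 0.0843 without mouse 1717 and 0.0519 without mouse 1718.

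Itga11, the α11 chain of a receptor for fibrillar collagen typical of fibroblasts (NCBI Gene 319480, chromosome 9, 62677855 to 62783979), had 100, 86.2 and 59.4 CPM in DSS, against 150, 213 and 151 CPM in control. The groups did not overlap, and Itga11 fell by 1.07 ± 0.21 on the log2 scale (edgeR adjusted p = 0.0167). Its log2 difference was -0.59 in mouse 1716, -1.31 in mouse 1717 and -1.35 in mouse 1718, so the smallest fall was that of mouse 1716. With the mouse as a block the call was kept (edgeR adjusted p = 0.00176). Without the block, leaving out control 1717 lost it (edgeR adjusted p = 0.0564), as did leaving out mouse 1717 (0.135) or mouse 1718 (0.0612).

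Itga1, the α1 chain of a receptor that binds collagen IV and other collagens (NCBI Gene 109700, chromosome 13, 114958079 to 115101964), is the neighbour of Itga2 on the same strand, with 26.0 kb between them. It had 109, 72.3 and 65.7 CPM in DSS and 134, 112 and 93.3 CPM in control. The DSS library of mouse 1716 reached the range of the control libraries, yet each animal's DSS library was the lower of its pair, with log2 differences of -0.30, -0.64 and -0.50. Itga1 did not pass (log2 fold change -0.46 ± 0.21, edgeR adjusted p = 0.197), and with the mouse as a block in the fit it did (0.00365). It also passed without DSS 1716 (log2 fold change -0.71, edgeR adjusted p = 0.0300) and without mouse 1716 (0.0407). Neighbours on the chromosome thus had opposite signs.

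The ratio of Itga2 to Itga11 shows the divergence within each library. Levels of different genes are compared here as CPM per kilobase of the leading transcript. On that scale Itga2 stood at 0.832, 0.75 and 1.02 times the level of Itga11 in DSS, against 0.265, 0.206 and 0.184 times in control. In DSS the transcript levels of these genes in bulk RNA were therefore near parity, and in each control library that of Itga11 was well above that of Itga2. Receptor protein was not measured. The summed level of Itga1, Itga2 and Itga11 was 38.0 ± 8.37 CPM per kilobase in DSS and 52.3 ± 8.89 CPM per kilobase in control (SD, n = 3), with overlapping ranges of 30.2 to 46.8 and 44.5 to 62.0.

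The laminin receptors differed too. Itga3, the α3 chain of a laminin receptor of basement membranes (NCBI Gene 16400, chromosome 11, 95044475 to 95076844), had 41.9, 44.6 and 53.4 CPM in DSS, against 13.9, 13.2 and 13.0 CPM in control. The groups lay far apart, and the control libraries were almost equal. Itga3 rose by 1.80 ± 0.11 on the log2 scale (edgeR adjusted p = 0.000438), with differences of 1.59, 1.76 and 2.04 within the animals. This call held in all 16 alternative fits, with adjusted p at most 0.0188. Its leading transcript held 80.1 to 83.6% of its counts in DSS and 76.7 to 88.7% in control, so the same transcript led in both groups, as far as kallisto divides reads among transcripts correctly.

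Itga6, the α6 chain of laminin receptors, which pairs with Itgb1 or Itgb4, had 32.9, 33.8 and 14.9 CPM in DSS and 37.7, 30.6 and 18.9 CPM in control. The groups overlapped, and the libraries of mouse 1718 were the lowest of each. Its log2 fold change was -0.10 ± 0.35 (edgeR adjusted p = 0.890). The summed glial markers were also lowest in mouse 1718, at 261, 138 and 59.4 CPM in the DSS libraries of mice 1716, 1717 and 1718 and 323, 229 and 95.8 CPM in control. Their part in the levels of Itga6 was not tested. The estimated transcript make-up of Itga6 differed between libraries: 1 minor transcript held 31.1% of its counts in DSS 1716, 1.07% in DSS 1717 and 19.6% in control 1717. Per kilobase, Itga3 stood at 1.13, 1.17 and 3.19 times the level of Itga6 in DSS, against 0.328, 0.381 and 0.612 times in control.

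**Figure D2:**
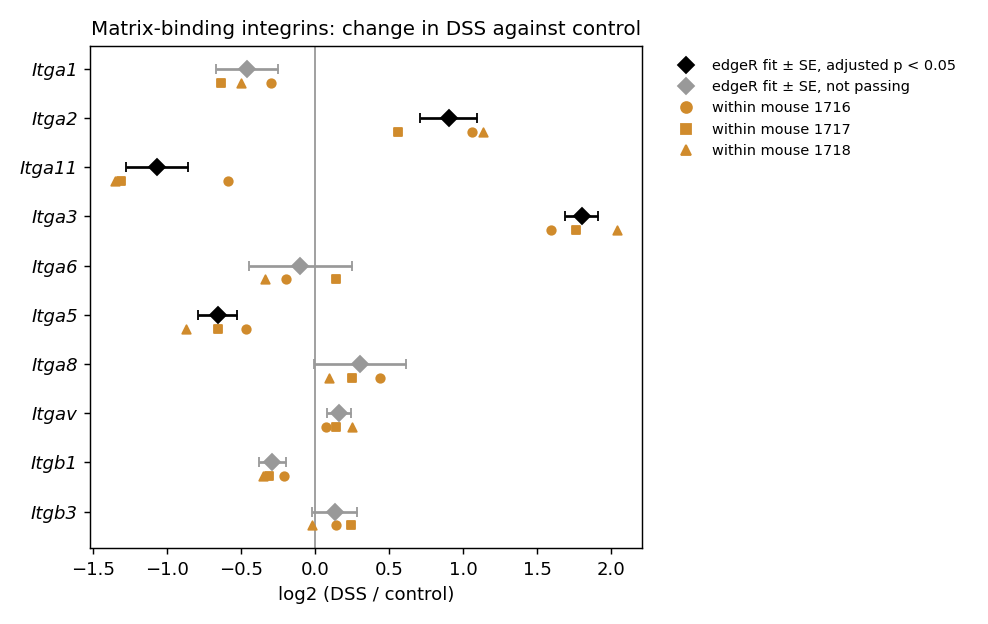
Log2 fold change of DSS over control for each member (diamonds, edgeR fit ± SE; black where the adjusted p is under 0.05) and the difference within each mouse (orange). Itga3 and Itga2 lie right of 0 in all 3 mice and Itga11 and Itga5 left of 0, while Itga6 and Itgb3 have mice on both sides.

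The fibronectin and αv receptors, which recognise the RGD motif of their ligands, held most of the α transcripts. Itga5, the α5 chain of the main fibronectin receptor (NCBI Gene 16402, chromosome 15, 103344286 to 103366791), had 908, 890 and 679 CPM in DSS, against 1260, 1412 and 1241 CPM in control. The groups did not overlap. Itga5 fell by 0.66 ± 0.13 on the log2 scale (edgeR adjusted p = 0.0150), with differences of -0.47, -0.66 and -0.87 within the animals. With the mouse as a block the call was kept (edgeR adjusted p = 0.00148). Without the block, leaving out control 1717 lost it (edgeR adjusted p = 0.0642), as did leaving out mouse 1717 (0.127) or mouse 1718 (0.0691).

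Itgav, the αv chain that binds vitronectin, fibronectin and latent TGF-β, had 892, 975 and 1041 CPM in DSS and 849, 883 and 873 CPM in control. Its lowest DSS library lay just above its highest control library, but the difference was small (0.16 ± 0.08) and did not pass (edgeR adjusted p = 0.257, and 0.123 with the mouse as a block). Itga8, the α8 chain of a nephronectin receptor of smooth muscle and mesenchyme, was the lowest member, at 17.9, 10.3 and 8.42 CPM in DSS and 13.1, 8.71 and 7.91 CPM in control. The groups overlapped, with mouse 1716 highest in each (log2 fold change 0.30 ± 0.31, edgeR adjusted p = 0.586). Counting all 10, groups did not overlap for 3 members higher in DSS and 3 lower, where 17.7% and 16.5% of all genes tested were so placed (34.2% in either direction).

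Between the β subunits no call was made. Itgb1, the β1 chain, had 1306, 1235 and 1132 CPM in DSS and 1506, 1533 and 1440 CPM in control. All DSS libraries lay below all control libraries, with differences of -0.21, -0.31 and -0.35 within the animals. At a log2 fold change of -0.29 ± 0.09 Itgb1 missed the threshold (edgeR adjusted p = 0.0691), while the blocked fit (0.0154) and DESeq2 (0.0175) called it. With the block, 2 members rose and 4 fell, the added ones being Itga1 and Itgb1, where 12.3% and 12.7% of all genes were called (25.0% in either direction). Itgb3, the β3 chain that pairs with Itgav, had 283, 267 and 198 CPM in DSS and 256, 227 and 200 CPM in control. These ranges overlapped, and the log2 fold change was 0.13 ± 0.15 (edgeR adjusted p = 0.625). Its leading transcript held 82.4% of its counts over all libraries.

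Ordered by level per kilobase, Itgb1 was first in both groups, at 321 ± 23.0 CPM per kilobase in DSS and 391 ± 12.6 in control, followed by Itga5, Itgav, Itgb3 and Itga11. Itga5 stood at 188 ± 29.1 CPM per kilobase in DSS and 298 ± 21.4 in control, and Itgav at 137 ± 10.6 in DSS and 123 ± 2.43 in control. The ranges of Itga5 and Itgav did not meet in either group. Itga5 stood at 1.64, 1.47 and 1.05 times the level of Itgav in DSS and at 2.39, 2.57 and 2.29 times in control. Below Itga11, Itga2 ranked 6, Itga3 7, Itga1 8 and Itga6 9 in DSS, whereas the control order was Itga1, Itga2, Itga6 and Itga3. In DSS, Itga3 at 9.59 ± 1.24 and Itga1 at 7.51 ± 2.13 CPM per kilobase did not differ beyond their spread, nor in control did Itga2 at 7.47 ± 1.69 and Itga6 at 6.74 ± 2.21. In DSS the ranges of Itga11 (11.9 to 20.1) and Itga2 (12.2 to 16.8) overlapped, as did those of Itga1 (5.99 to 9.94) and Itga6 (3.45 to 7.85). In control those of Itga1 (8.5 to 12.2) and Itga2 (5.58 to 8.83) overlapped. Itga8 was last in both groups.

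As shares of the 8 α members, Itga5 made up 49.1 ± 4.08% in DSS and 61.4 ± 0.518% in control, and Itgav 36.3 ± 5.51% in DSS and 25.5 ± 1.45% in control. Itga11 held 4.28 ± 0.808% in DSS and 7.09 ± 1.01% in control. Shares of a whole are tied to each other, and the level of Itgav itself did not pass the test. The α members summed to 382 ± 28.9 CPM per kilobase in DSS and 484 ± 32.1 in control. Set against Itgb1 the sum was 1.19 ± 0.0323 in DSS and 1.24 ± 0.0518 in control, and the ranges, 1.17 to 1.23 in DSS and 1.20 to 1.29 in control, overlapped.

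**Figure D3:**
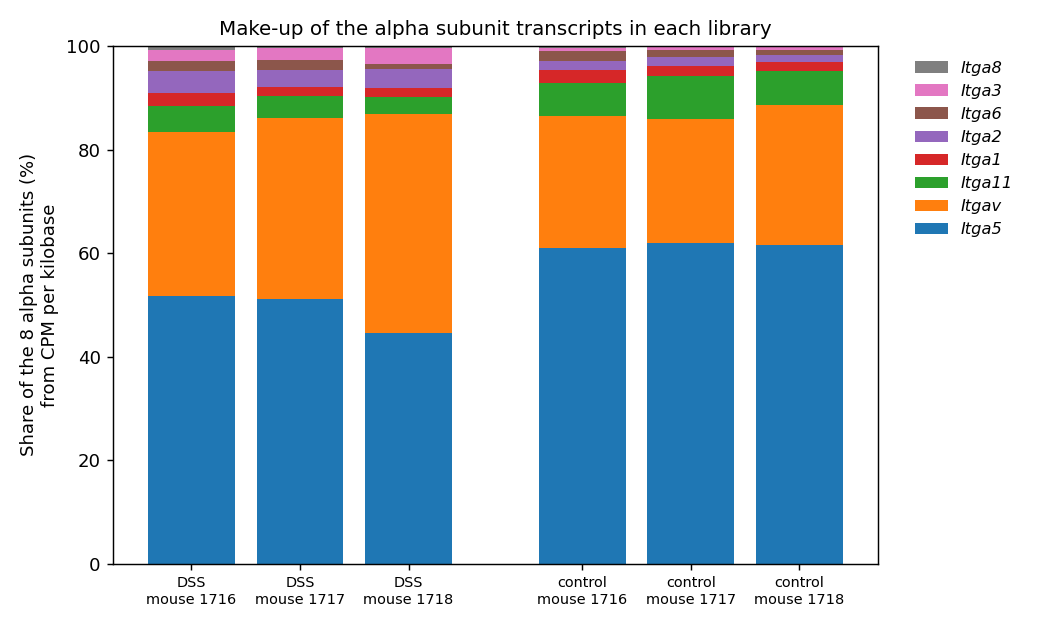
Share of each α subunit in the summed level (CPM per kilobase) of the 8 α members, for each library, DSS on the left and control on the right. Itga5 takes 44.5 to 51.8% in DSS and 60.9 to 61.9% in control, Itgav 31.6 to 42.3% in DSS and 24.0 to 26.9% in control, and the other 6 subunits share the rest.

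Other integrin subunits were followed for comparison. Of 16 listed, 15 could be tested, and 1 rose and 2 fell, 20% against 13.3% of all genes. Without mouse 1718, 1 was called in all, where 664 genes were called over all genes. With the mouse as a block 3 of 15 rose and 4 fell, where 12.3% and 12.7% of all genes were called. Itgb5, the β5 chain that pairs with Itgav on vitronectin, had 264, 297 and 290 CPM in DSS against 372, 394 and 406 CPM in control. It fell by 0.46 ± 0.08 on the log2 scale (edgeR adjusted p = 0.00852, but 0.0904 with mouse 1717 left out and 0.0858 with mouse 1718 left out). Itgb8, another partner of Itgav, named after its values were seen, had 6.48 ± 2.39 CPM in DSS and 3.13 ± 1.07 CPM in control and did not pass (edgeR adjusted p = 0.0830; 0.0140 with the block, and 0.0239 with DESeq2). The αv partners thus ran from a fall of Itgb5 to a log2 fold change of 1.05 ± 0.33 for Itgb8.

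The other called subunits are those of leukocytes. Itgam, the αM chain of macrophages, had 147, 216 and 156 CPM in DSS against 282, 337 and 296 CPM in control, and Itgax, the αX chain, 10.3, 11.8 and 11.3 CPM in DSS against 2.94, 3.95 and 4.53 CPM in control. These genes are 11 kb apart on chromosome 7. Itgam fell by 0.82 ± 0.15 (edgeR adjusted p = 0.0132; 0.0563 without control 1717, 0.0507 without mouse 1716 and 0.113 without mouse 1718), and Itgax rose by 1.55 ± 0.17 (edgeR adjusted p = 0.00215). Their shared β chain Itgb2 had 164, 193 and 153 CPM in DSS and 96.5, 142 and 120 CPM in control and did not pass (edgeR adjusted p = 0.0646; 0.00456 with the block, 0.0234 with DESeq2 and 0.0440 with total library size). Of the 8 macrophage markers 1 rose and 2 fell, 37.5% against 13.3% of all genes, with a median log2 fold change of -0.34. With the block 1 of these markers rose and 5 fell, where 12.3% and 12.7% of all genes were called. The part of macrophages in the levels of Itgav and Itgb3, which these cells also carry, was not tested. Itga9 and Itgb4, named after their values were seen, passed with the block alone among the 16 alternatives (edgeR adjusted p = 0.0217 and 0.0375), at -0.23 ± 0.07 and -0.46 ± 0.15 without it.

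**Figure D4:**
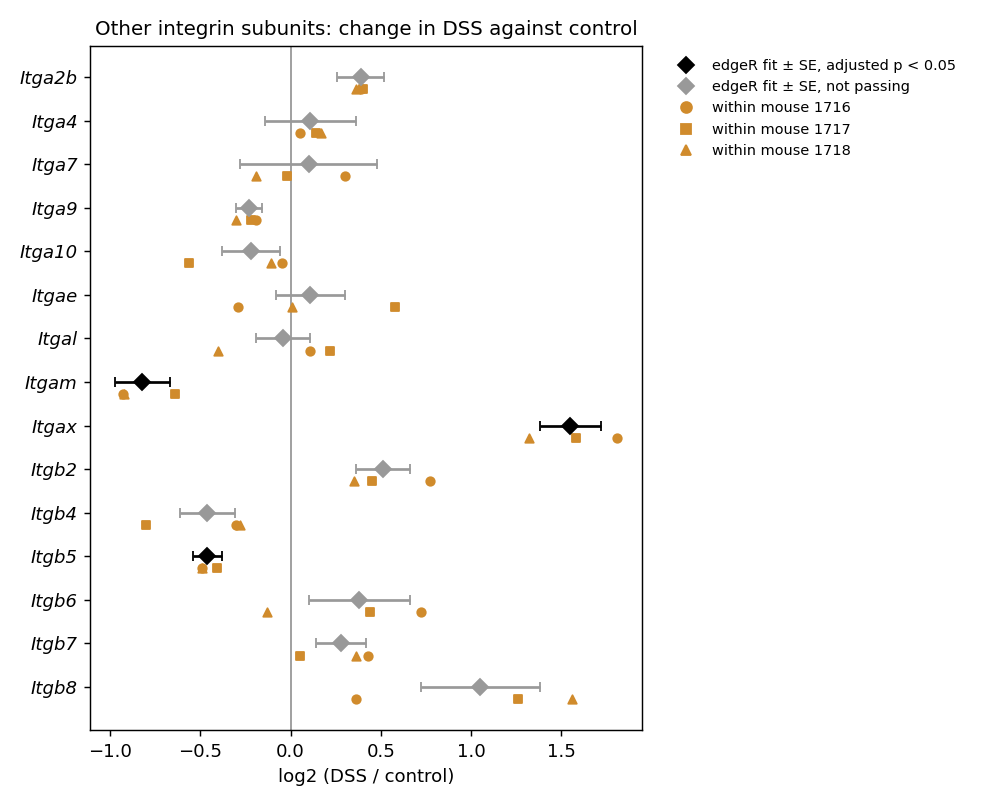
Log2 fold change of DSS over control for the 15 other integrin subunits tested (diamonds, edgeR fit ± SE; black where the adjusted p is under 0.05) and the difference within each mouse (orange). Itgax at 1.55, Itgam at -0.82 and Itgb5 at -0.46 are the ones called.

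Most ligands of the collagen receptors fell. Of 11 collagen chains tested 8 fell, 72.7% where 5.91% of all genes fell, with a median log2 fold change of -0.86, and the remaining 3 did not pass. Col5a1, a chain of fibrillar collagen V, fell by 1.26 ± 0.13 on the log2 scale, Col6a3 of collagen VI by 1.44 ± 0.16, Col5a2 by 0.98 ± 0.12 and Col1a1 of collagen I by 1.06 ± 0.15. Leaving out mouse 1717 gave an edgeR adjusted p of 0.0540 for Col5a2 and 0.113 for Col1a1, and leaving out mouse 1718 gave 0.0506 and 0.0907. In each of these fits 2 collagens were called. Over all genes the fits called 649 without mouse 1717 and 664 without mouse 1718, against 2639 with all libraries.

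Of 9 laminin chains tested 1 rose and 3 fell, 44.4% against 13.3% of all genes. Lama5, the α5 chain of laminins of mature basement membranes, had 908, 837 and 881 CPM in DSS against 690, 509 and 493 CPM in control. It rose by 0.63 ± 0.13 on the log2 scale (edgeR adjusted p = 0.0216), a call lost without DSS 1716 (0.0502), DSS 1718 (0.0567), control 1717 (0.0904), control 1718 (0.0758), mouse 1717 (0.176) and mouse 1718 (0.157). Lama1, Lama2 and Lamb1 fell. Lama2, the α chain of muscle and mesenchymal laminin, had 60.1, 58.7 and 52.1 CPM in DSS against 103, 111 and 106 CPM in control (edgeR adjusted p = 0.000959). Lama1 fell by 1.16 ± 0.15 (edgeR adjusted p = 0.00384; 0.0520 without mouse 1717). Lamb1, the β chain common to many laminins, fell by 0.44 ± 0.09, with edgeR adjusted p = 0.0591 without control 1717, 0.0683 without control 1718, 0.145 without mouse 1717 and 0.0939 without mouse 1718. Laminin chains called numbered 2 without control 1717, control 1718 or mouse 1718, and 1 without mouse 1717. Over all genes those fits called 1349, 1494, 664 and 649, in that order, against 2639 with all libraries.

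Of 13 ligands of the RGD and αv receptors tested 2 rose and 1 fell, 23.1% against 13.3% of all genes, with a median log2 fold change of -0.38. Without mouse 1717, 1 was called in all, where 649 genes were called over all genes. Npnt, nephronectin, the ligand of the Itga8 receptor, had 54.9, 71.4 and 47.2 CPM in DSS against 17.1, 15.3 and 13.0 CPM in control. It rose by 1.93 ± 0.17 (edgeR adjusted p = 0.00116), while Itga8 itself did not pass. Mfge8, a secreted RGD protein that bridges αv receptors to dying cells, rose by 0.59 ± 0.11 (edgeR adjusted p = 0.0117; 0.0550 without control 1717, 0.145 without mouse 1717 and 0.0772 without mouse 1718). Fbn1, the microfibril protein fibrillin, fell by 1.28 ± 0.19 (edgeR adjusted p = 0.00651; 0.104 without mouse 1717). Postn, periostin, differed by -0.97 ± 0.27 on the log2 scale, which missed the threshold (edgeR adjusted p = 0.0565; 0.000361 with the block, 0.00123 with DESeq2, 0.0448 without DSS 1716 and 0.0357 without mouse 1718).

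Fn1, fibronectin, the ligand of the Itga5 receptor, was named after its values were seen. It had 4917, 5931 and 5325 CPM in DSS and 6074, 8397 and 8002 CPM in control. The groups did not overlap, but at -0.47 ± 0.15 on the log2 scale Fn1 missed the threshold (edgeR adjusted p = 0.0846). It passed with the block (0.00630), with DESeq2 (0.0141), without control 1716 (0.0312) and without mouse 1716 (0.0368). With the block 2 of these 13 ligands rose and 8 fell, where 12.3% of all genes rose and 12.7% fell.

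Inside the cell, most genes that tie integrin tails to actin did not pass. Of 40 adaptors, linkers and kinases tested 1 rose and 6 fell, 17.5% against 13.3% of all genes, with a median log2 fold change of -0.08. Tln2, a talin that binds and activates β tails, had 83.6, 80.5 and 86.2 CPM in DSS against 172, 184 and 179 CPM in control, and fell by 1.09 ± 0.06 (edgeR adjusted p = 0.000438). For its paralogue Tln1 the log2 fold change was -0.15 ± 0.08 (edgeR adjusted p = 0.267, not called). Kank1, which binds talin at the rim of adhesions, rose to 77.6, 92.0 and 89.7 CPM in DSS, against 39.5, 41.6 and 42.7 CPM in control (edgeR adjusted p = 0.000841). These calls of Tln2 and Kank1 held in all 16 alternative fits.

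Kank2, a relative of Kank1, went the other way and fell by 0.34 ± 0.06 (edgeR adjusted p = 0.0131), with 0.0665, 0.132 and 0.0766 without mice 1716, 1717 and 1718. Tns1, a tensin that joins β tails to actin, fell by 0.65 ± 0.10 (edgeR adjusted p = 0.00724; 0.0755 without mouse 1717). Actn1, an actin crosslinker, fell by 0.40 ± 0.07 (edgeR adjusted p = 0.0118), a call lost without control 1717 (0.0583), control 1718 (0.0550), mouse 1717 (0.144) and mouse 1718 (0.129). Parva, a partner of integrin-linked kinase, fell by 0.34 ± 0.07 (edgeR adjusted p = 0.0163), which became 0.0544 without control 1717, 0.0698 without control 1718, and 0.0677, 0.106 and 0.135 without mice 1716, 1717 and 1718. Tgfb1i1, a relative of paxillin, fell by 0.38 ± 0.09 and passed (edgeR adjusted p = 0.0352), but lost its call in 8 of the 9 fits without a library or a mouse, that without DSS 1718 excepted (0.0538 to 0.136). Tln1, Kank2, Parva and Tgfb1i1 were named after their values were seen, as were the following genes, which did not pass.

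Fermt2, the kindlin of mesenchymal cells, had 254 ± 15.8 CPM in DSS and 305 ± 15.1 CPM in control (log2 fold change -0.26 ± 0.08, edgeR adjusted p = 0.0635; 0.0296 with the block). Ptk2, focal adhesion kinase, had a log2 fold change of -0.19 ± 0.09 (edgeR adjusted p = 0.218; 0.0310 without DSS 1716). Vcl, vinculin, which reinforces the link of talin to actin, had 787 ± 34.2 CPM in DSS and 742 ± 25.7 CPM in control (edgeR adjusted p = 0.508). The adaptor count was 4 without control 1717, control 1718 or mouse 1716, 2 without mouse 1717 and 3 without mouse 1718. Over all genes those fits called 1349, 1494, 1827, 649 and 664, in that order, against 2639 with all libraries. With the block 4 of 40 adaptors rose and 9 fell, where 25.0% of all genes were called.

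**Figure D5:**
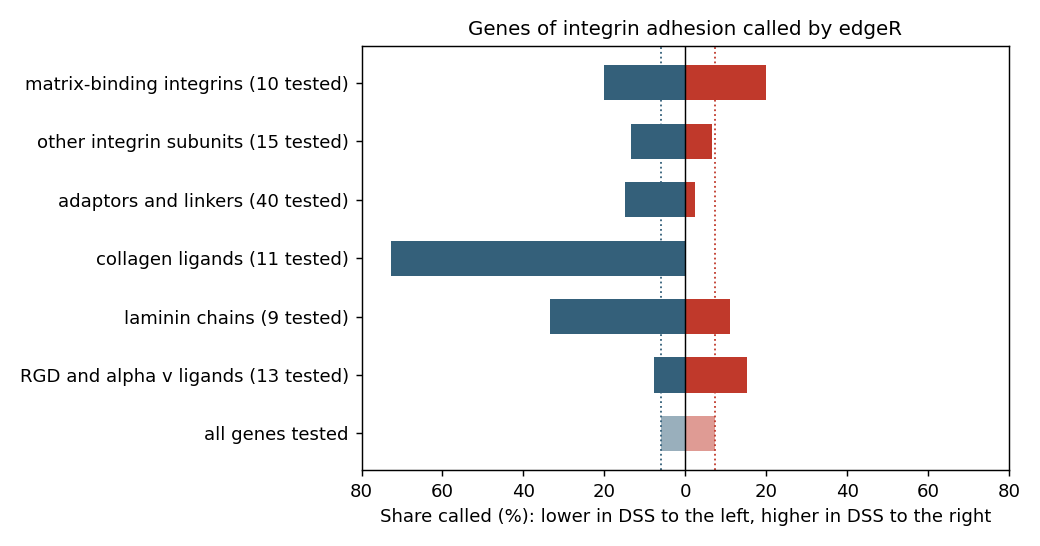
Share of the tested genes of each group called by edgeR, with falls in DSS to the left and rises to the right; dotted lines mark the shares among all genes tested, 5.91% and 7.37%. The matrix-binding integrins have 2 of 10 on each side, and the collagen ligands 8 of 11 on the left.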

How the data were processed

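From the total RNA of 6 cultures ribosomal RNA was removed before directional libraries were made, per the labels' protocols. The authors deposited 1 table of estimated counts per RefSeq transcript; per the submitters' processing notes kallisto was the tool, and GRCm38 and mm10 are the builds named. The sources used here name neither its version nor a filter. Because kallisto divides reads by likelihood, transcript shares are uncertain.

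The estimated counts were summed per gene symbol, rounded, kept where filterByExpr passed them (at least 10 counts, total at least 15), normalized with TMM factors and given to edgeR's quasi-likelihood test, the group being its only term, with Benjamini-Hochberg adjustment over 19869 genes. An SE is the log2 fold change over the square root of F. The tests were tested on simulated data. The same 3 mice gave both groups. Across genes, deviations from the group means correlated with r = 0.35, 0.21 and 0.46 between the libraries of mice 1716, 1717 and 1718, so the mouse as a block was an alternative. Same-group libraries differed by more than counting noise. DESeq2, limma-voom, other scalings and leaving out libraries or mice were the other alternatives. Lengths are of GENCODE M21 transcripts matched to the leading RefSeq transcript. Gene positions and promoters are RefSeq's for GRCm38.p6, and 99.99% of transcripts matched its gene table. Members and lists were chosen with earlier results of these data known. Genes named are all members, the 4 with the smallest p in each other list, called integrins, and those stated as named after their values were seen. DESeq2 1.42.0, edgeR 4.0.16 and limma 3.58.1 ran in R 4.3.3, and matplotlib 3.10.9, numpy 2.4.6 and pandas 2.3.3 in Python 3.11.15.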

Additional observations from a re-analysis of the deposited data

How the results depend on the processing

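The number of genes called over all genes, 2639 (13.3%), was 4965 with the mouse as a block (25.0%), 2722 with DESeq2 and 3039 with DESeq2 and the block. It was 649 to 2418 when a library or a mouse was left out. The number of members called, 4, was 5 with DESeq2, 6 with the block in edgeR or DESeq2, and 1 to 5 when a library or a mouse was left out. The block gave 7 calls among the 15 other integrin subunits tested (3 without it, and 5 with DESeq2, with or without the block). Among 40 adaptors it gave 13 calls (7 without it, and 11 with DESeq2 and the block). Among 13 RGD and αv ligands it gave 10 calls (3 without it, 6 with DESeq2, and 9 with DESeq2 and the block). When a library or a mouse was left out, 1 to 3 other integrin subunits, 2 to 7 adaptors, 2 to 8 collagens, 1 to 4 laminin chains and 1 to 4 RGD and αv ligands were called. Those fits had fewer libraries. In them the log2 fold change of the uncalled Itga6 ran between -0.33 and 0.20, above 0 without DSS 1718 (0.20) and without control 1716 (0.13). That of the uncalled Itga8 ran between -0.08 and 0.55, below 0 without DSS 1716, and the cause was not tested. Of the 10 members Itga6 and Itga8 alone changed sign in an alternative, and another filter or scaling moved no member across the threshold within edgeR. Over all genes, same-group libraries differed by more than counting noise (chi-square per degree of freedom 9.61 to 21.9), and what depth limits for the lowest members was not tested.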
